A study of Mus musculus with 3 samples.

Results

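Fzd2 and Fzd3 encode frizzled receptors, and their molecules were counted in single cells of mouse bone marrow (BM) in 3 targeted libraries. Both genes were picked by symbol, with results of these data already known, and they are 2 of the 8 frizzled receptors and of the 125 targets that had a molecule. E18.5 EC held endothelial cells (ECs) that were sorted from E18.5 embryos, with a gate given as CD31 and endomucin in the series' design and as CD31 alone in the study's methods. The other libraries, E18.5 BM cells and, from adult mice, Adult BM cells, were marrow suspensions depleted of mature haematopoietic cells with lineage antibodies. All mice were wild-type C57/B6, cells of several animals entered each library, and each group had 1 library, so no difference was tested and every interval is a 95% interval of counting error only. Stage cannot be told apart from library, preparation and depth. Further rounds of depletion, with CD45 and CD117 among their antigens, are described for adult cells of other libraries, and whether they were applied here is not given in the sources used here. Both receptors were chosen for their levels across cell classes, so these levels are a description.

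Frizzled receptors are membrane proteins that bind secreted Wnt ligands through a cysteine-rich domain and pass the signal to Dishevelled proteins inside the cell. With an LRP co-receptor they can stabilise beta-catenin, and with Ror or Ryk co-receptors they act in pathways that do not use it. Fzd2 is a known receptor for Wnt5a in mesenchyme, and Fzd3 is known for its role in planar cell polarity and axon guidance.

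Each receptor was read by 1 amplicon at the 3′ end of its reference transcript. Fzd2 is a single-exon gene on the plus strand of chromosome 11 (GRCm38, chr11:102604396-102608058), and its 3′ UTR has 1614 bases. Fzd3 lies on the minus strand of chromosome 14 (GRCm38, chr14:65192449-65262463), its transcript has 7 exons, and its 3′ UTR has 10270 bases. The last 30 bases of both reference transcripts (GENCODE) are shown because the amplicons are labelled with the reference end. Capitals mark AATAAA, the canonical polyadenylation signal, searched in the transcript strand and found in the last 30 bases of 81 of the 125 panel transcripts (64.8%).
Fzd2 (chr11:102608029-102608058, plus): atcatAATAAAgtgcatttaattatcttca
Fzd3 (chr14:65192449-65192478, minus): gaaatttttAATAAAactaaataacttgtt
The end shown here is the end of the annotated transcript, and whether molecules that stop at another end were counted was not examined.

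After cells with fewer than 20 molecules or 5 targets were removed, 4038 cells remained for E18.5 EC, 12844 for the fetal BM library and 7939 for the adult one, with 83, 97 and 242 molecules in the median cell. The 3 libraries held 432987, 1837897 and 6304495 molecules in all. Between 38 and 113 cell barcodes were shared by a pair of libraries. Cells were clustered without any Wnt pathway gene and classed by markers as mural-like (Rgs5), fibroblast-like (Aspn, Postn), osteoblast-like (Bglap), reticular-like (Cxcl12, Lepr), cartilage-like (Col2a1), endothelial-like and Ptprc cells. Ptprc encodes CD45 and marks haematopoietic cells. Reticular-like, osteoblast-like and cartilage-like classes were found in Adult BM cells, and E18.5 BM cells held fibroblast-like and mural-like classes and a small cluster led by both cartilage and bone genes. No mesenchymal class was found in E18.5 EC, where 24 cells of a mixed cluster led by Col22a1 and Postn stayed unnamed.

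Fzd2 molecules lay mostly in mesenchymal cells at E18.5, whereas Fzd3 molecules did not. Of 636 Fzd2 molecules in E18.5 BM cells, 600 (94.3%) lay in fibroblast-like and mural-like cells, which were 10.1% of the cells. These classes held 133 of 432 Fzd3 molecules (30.8%), and Ptprc cells, which were 82.7% of the cells, held 238 (55.1%). The share of Fzd3 molecules thus lay above the share of cells in the mesenchymal classes and below it in Ptprc cells. These shares do not allow for depth, with a median of 239 molecules in fibroblast-like, 304 in mural-like and 89 in Ptprc cells. In Adult BM cells, 165 of 235 Fzd2 molecules (70.2%) and 182 of 247 Fzd3 molecules (73.7%) came from the 4 mesenchymal classes (mural-like, fibroblast-like, osteoblast-like and reticular-like), which were 47.0% of the cells. Cartilage-like cells added 54 molecules of Fzd2 and 1 of Fzd3. E18.5 EC had 5 molecules of Fzd2 and 72 of Fzd3, and 60 of the latter were in endothelial-like cells. Most Fzd2 molecules thus came from mesenchymal classes in both BM libraries, and most Fzd3 molecules in the adult one only.

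**Figure D1:**
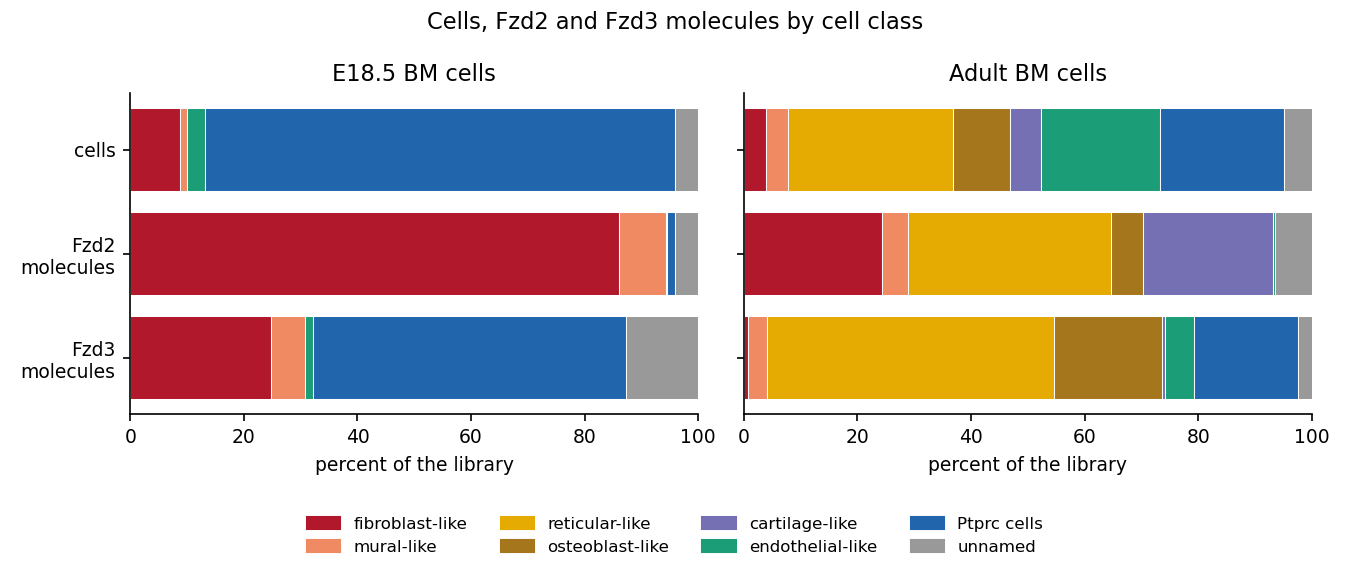
Stacked bars give the share of cells, of Fzd2 molecules and of Fzd3 molecules (percent of the library) that fell into each cell class, for the E18.5 (left) and adult (right) BM libraries. At E18.5, fibroblast-like cells (8.79% of cells) took 86.0% of Fzd2, while Ptprc cells (82.7% of cells) took 55.1% of Fzd3.

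Fzd2 levels were compared between classes as molecules per 10000 panel molecules. Fetal fibroblast-like cells had the matrix genes Postn, Aspn and Vcan among their leading targets, and their 547 molecules in 1129 cells gave a level of 18.3 (16.8 to 19.9). Mural-like cells, which surround vessels and were led by Acta2 and Rgs5, followed with 53 molecules in 163 cells and a level of 8.81 (6.6 to 11.5). Most of these mural-like cells also held the fibroblast-like markers Aspn (95.1%) and Postn (90.8%). Both classes stood far above the endothelial-like and Ptprc cells of that library. The fibroblast-like level was 2.08 times the mural-like one (1.56 to 2.81), and it was 3.75 times (2.82 to 5.07) without the 10 most abundant targets of each library and 1.49 times (1.12 to 2.01) per cell. In endothelial-like cells 1 molecule was seen in 407 cells, a level of 0.253 (0.00640 to 1.41). Ptprc cells had 9 molecules in 10619 cells, a level of 0.0730 (0.0334 to 0.139). The order of these last classes was not resolved, since the ratio of their levels was 3.46 with an interval from 0.0789 to 24.97.

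Adult BM cells had the same leading class at a lower level. Fibroblast-like cells held 57 Fzd2 molecules in 313 cells, a level of 4.87 (3.69 to 6.31). Reticular-like cells, the Lepr and Cxcl12 stroma that supports haematopoietic stem cells, held 84 in 2300 cells, a level of 0.874 (0.697 to 1.08). The fibroblast-like level was 5.58 times the reticular-like level (3.91 to 7.90), and 1.42 times (0.998 to 2.01) when the 10 most abundant targets of each library were left out of the totals. The mural-like level of 0.670 (0.335 to 1.20; 11 molecules in 310 cells) was not separated from the reticular-like one, their ratio being 1.30 (0.693 to 2.71). Cartilage-like cells at 0.290 (0.218 to 0.378) and osteoblast-like cells at 0.0618 (0.0329 to 0.106) came next. Endothelial-like cells had 1 molecule in 1655 cells, and Ptprc cells had 0 in 1730 cells, so that a level of up to 0.159 is allowed. Against that limit, which is 3 molecules over the class, the level of adult fibroblast-like cells was 30.6-fold higher. The exact 95% interval of the ratio to Ptprc cells starts at 24.1.

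**Figure D2:**
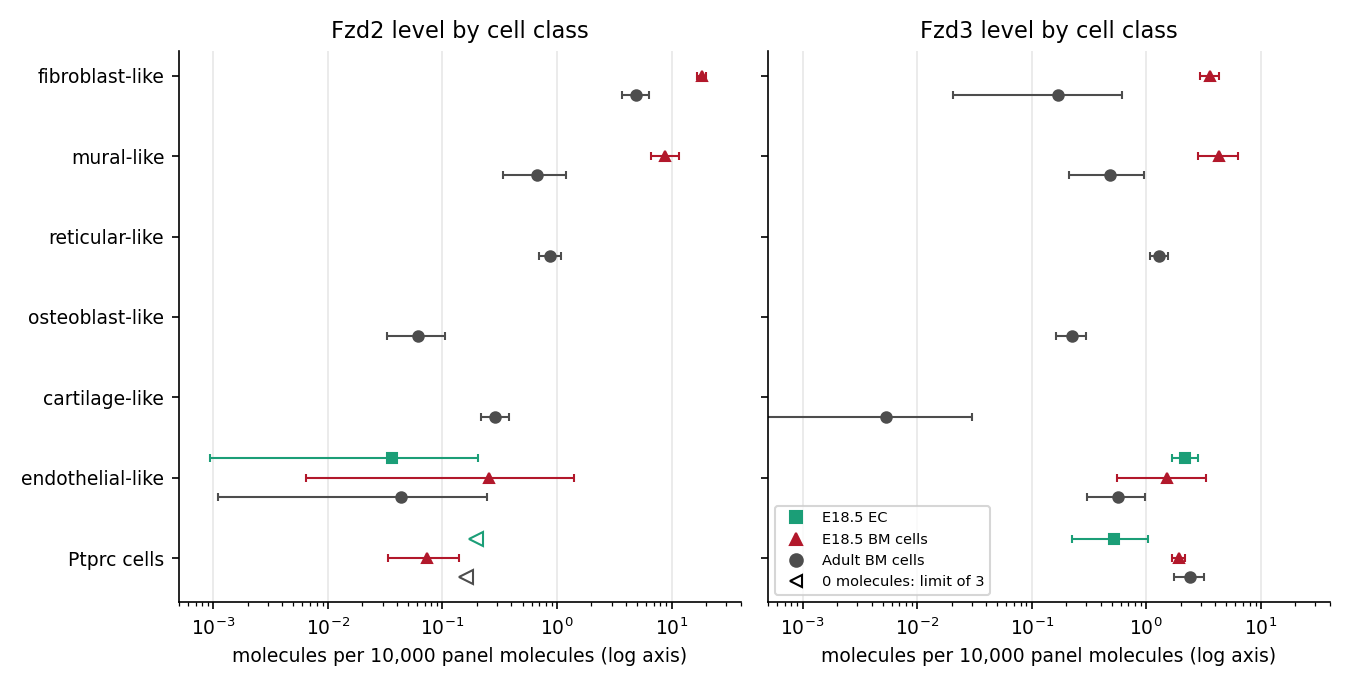
Levels of Fzd2 (left) and Fzd3 (right) in molecules per 10000 panel molecules on a log axis, with 95% Poisson intervals, for each cell class and library. Open triangles mark classes with 0 molecules at the limit of 3 molecules. Fzd2 spans from 18.3 in fetal fibroblast-like cells to 0 in adult Ptprc cells, and Fzd3 lies between 1.52 and 4.32 in all 4 classes of E18.5 BM cells.

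The scale matters for the adult classes, because osteoblast-like and cartilage-like cells were rich in Bglap or Col2a1 molecules. The median cell had 4012 molecules in the cartilage-like class and 374 in the reticular-like class. Per 100 cells, cartilage-like cells had 12.5 molecules of Fzd2 (9.37 to 16.3), and reticular-like cells had 3.65 (2.91 to 4.52). The order of these classes thus turned with the scale: cartilage-like cells were lower per panel molecule and higher per cell. Fibroblast-like cells had the highest value on both scales, with 18.2 Fzd2 molecules per 100 cells in the adult (13.8 to 23.6) and 48.5 at E18.5 (44.5 to 52.7). In the adult this interval per 100 cells overlapped that of cartilage-like cells. Of the osteoblast-like clusters, the one led by Bglap had 1 Fzd2 molecule in 310 cells, a level of 0.00551. The other, with Mmp13 and Spp1 among its leading targets, had 12 in 495, a level of 0.415 (0.215 to 0.726), so the place of osteoblast-like cells below cartilage-like cells held for the pooled class and not for this cluster.

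Shares of cells gave the same leading classes, but in the adult the interval of the leading class overlapped that of cartilage-like cells before thinning. Fzd2 was found in 34.6% of fetal fibroblast-like cells (31.9 to 37.5), in 24.5% of fetal mural-like cells (18.1 to 31.9) and in 14.7% of adult fibroblast-like cells (10.96 to 19.1). Adult cartilage-like cells, with a median of 4012 molecules, had it in 11.5% (8.69 to 14.9). This share was above those of adult reticular-like (3.52%) and mural-like cells (3.55%). Ptprc cells, given beside these as cells of another kind, had it in 0.0848% of E18.5 cells (0.0388 to 0.161). Their median was 89 molecules against 239 in fibroblast-like cells, and free RNA was not measured. With every cell drawn down to 50 molecules (16 fibroblast-like and 2112 Ptprc cells were too shallow), the shares were 10.2% (8.52 to 12.2) and 0.0470% (0.0128 to 0.120). Thinned shares were 6.79% (3.44 to 11.8) in fetal mural-like and 3.88% (2.02 to 6.69) in adult fibroblast-like cells, where 1 and 4 cells were too shallow. In adult cartilage-like cells the thinned share was 0.231% (0.00585 to 1.28). Among the 391 fetal fibroblast-like cells with Fzd2, 273 had 1 molecule, 88 had 2 and 30 had 3 or more, up to 5.

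Haematopoietic RNA was present in the fetal mesenchymal classes. Ptprc was detected in 16.7% of fibroblast-like and 14.7% of mural-like cells at E18.5, and Pecam1, an endothelial and haematopoietic gene, in 9.65% and 6.13%. With all such cells removed, Fzd2 stood at 19.3 per 10000 in the 899 remaining fibroblast-like cells and at 9.23 in 134 mural-like cells, so both levels were as high without them. In the adult mural-like class, Pecam1 was detected in 63.9% of cells and the arterial genes Sema3g and Gja4 were among the leading targets. Without these cells the class had 111 cells with 6 molecules, a level of 1.18.

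Fzd3 had a flatter pattern. In E18.5 BM cells, mural-like cells held 26 molecules at a level of 4.32 (2.82 to 6.34), and fibroblast-like cells held 107 at 3.58 (2.93 to 4.33). These levels were not separated, with a ratio of 1.21 (0.755 to 1.87). Ptprc cells held 238 molecules at 1.93 (1.69 to 2.19), and the fibroblast-like level was 1.85 times theirs (1.46 to 2.34). This step depended on the scale: leaving the 10 most abundant targets of each library out of the total turned it to 0.855 (0.674 to 1.08), and per cell it was 4.23 (3.33 to 5.33). Endothelial-like cells followed at 1.52 (0.556 to 3.30), not separated from Ptprc cells. Fzd3 was found in 8.68% of fibroblast-like cells (7.10 to 10.5) and in 2.13% of Ptprc cells (1.86 to 2.42), and at 50 molecules a cell in 1.71% (1.03 to 2.65) and 1.33% (1.10 to 1.59).

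In Adult BM cells, Ptprc cells came first for Fzd3 with 45 molecules in 1730 cells and a level of 2.39 (1.74 to 3.20). Reticular-like cells followed with 125 molecules in 2300 cells and a level of 1.30 (1.08 to 1.55), or 0.544 times the Ptprc level (0.384 to 0.782). Per cell this order was turned, with 5.43 molecules per 100 reticular-like cells (4.52 to 6.48) and 2.60 per 100 Ptprc cells (1.90 to 3.48), and with the 10 most abundant targets left out the ratio was 1.29 (0.913 to 1.86). Endothelial-like cells at 0.568 (0.302 to 0.971) and mural-like cells at 0.487 (0.210 to 0.960) were not separated from each other. The osteoblast-like level was 0.223 (0.164 to 0.297), but its clusters stood apart, at 0.0771 (0.0421 to 0.129) with 14 molecules in the Bglap cluster and at 1.14 (0.786 to 1.60) with 33 in the Mmp13 cluster. Fibroblast-like cells had 2 molecules in 313 cells, a level of 0.171 (0.0207 to 0.618), and cartilage-like cells had 1 in 433. The class with the highest Fzd2 level in the adult was thus among the lowest for Fzd3.

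Between stages, both receptors were lower in the adult fibroblast-like and mural-like classes. Classes of the same name differed in markers between the libraries. Postn was in 99.8% of fetal and 21.1% of adult fibroblast-like cells, at 4397 and 293 per 10000, and Aspn was in 91.0% and 88.5%. The part of this difference in the ratios was not tested. In fibroblast-like cells, Fzd2 was 3.76 times as high in E18.5 BM cells as in Adult BM cells (2.86 to 5.02), 2.66 times per cell, 6.02 times without the 10 most abundant targets and 6.74 times with cells gated on markers. For Fzd3 the ratio was 20.9 (5.66 to 175), with 107 molecules against 2, and ran from 7.56 to 33.6 over the alternatives. Mural-like cells showed ratios of 13.2 for Fzd2 (6.79 to 27.9) and 8.87 for Fzd3 (3.90 to 22.7). With cells gated on markers the former was 43.2, and the latter ran from 5.57 to 22.1 over the alternatives. The mural-like classes differed in fibroblast markers too. Postn was in 90.8% of fetal and 45.8% of adult mural-like cells, at 754 and 49.8 per 10000, and Aspn was in 95.1% and 88.1%. The part of these markers' cells in the ratios was not tested. Endothelial-like cells gave 2.67 for Fzd3 (0.832 to 7.53), an interval that holds 1, and the 1 molecule of Fzd2 on each side allowed no statement. In Ptprc cells, the Fzd3 ratio was 0.807 (0.585 to 1.14), an interval that holds 1. With the 10 most abundant targets left out it was 1.70 (1.23 to 2.39), so the direction depended on the scale.

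Some other receptors of the panel were also lower in adult fibroblast-like cells. In fibroblast-like cells, 5 of the 8 frizzled receptors were at least 2 times higher in E18.5 BM cells than in Adult BM cells and 0 were at least 2 times lower. Of 103 targets with at least 20 molecules in both groups together, 35.9% were higher and 28.2% lower by that measure. The median ratio was 2.66 over the receptors and 1.17 over all targets. This count and median, like the receptor counts below, include Fzd2 and Fzd3, which were chosen for their levels. They are therefore no separate support for a pattern of the family. Beside Fzd2 and Fzd3 the higher receptors were Fzd5 (3.45 times; 2.53 to 4.81), Fzd7 (2.88 times; 2.49 to 3.35) and Fzd8 (2.56 times; 1.35 to 5.36). Per cell, Fzd7 was 2.04 and Fzd8 1.81 times as high. Fzd6 was 1.88 times as high (1.30 to 2.79). Fzd4 and Fzd9 had intervals that hold 1, and per cell both were below 1. In mural-like cells, where 41% of 83 targets were at least 2 times higher at E18.5 and 33.7% lower, 3 of 6 receptors with enough molecules were higher (Fzd2, Fzd3 and Fzd5) and 2 were lower. Fzd4, a receptor of vascular development, stood at 0.831 in fetal and 3.17 in adult mural-like cells, and Fzd6 at 0.333 and 11.8. Both are receptors with high levels in the endothelial-like cells, and Pecam1 was detected in most adult mural-like cells, as given above. The part of those cells in the Fzd4 and Fzd6 levels was not tested.

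**Figure D3:**
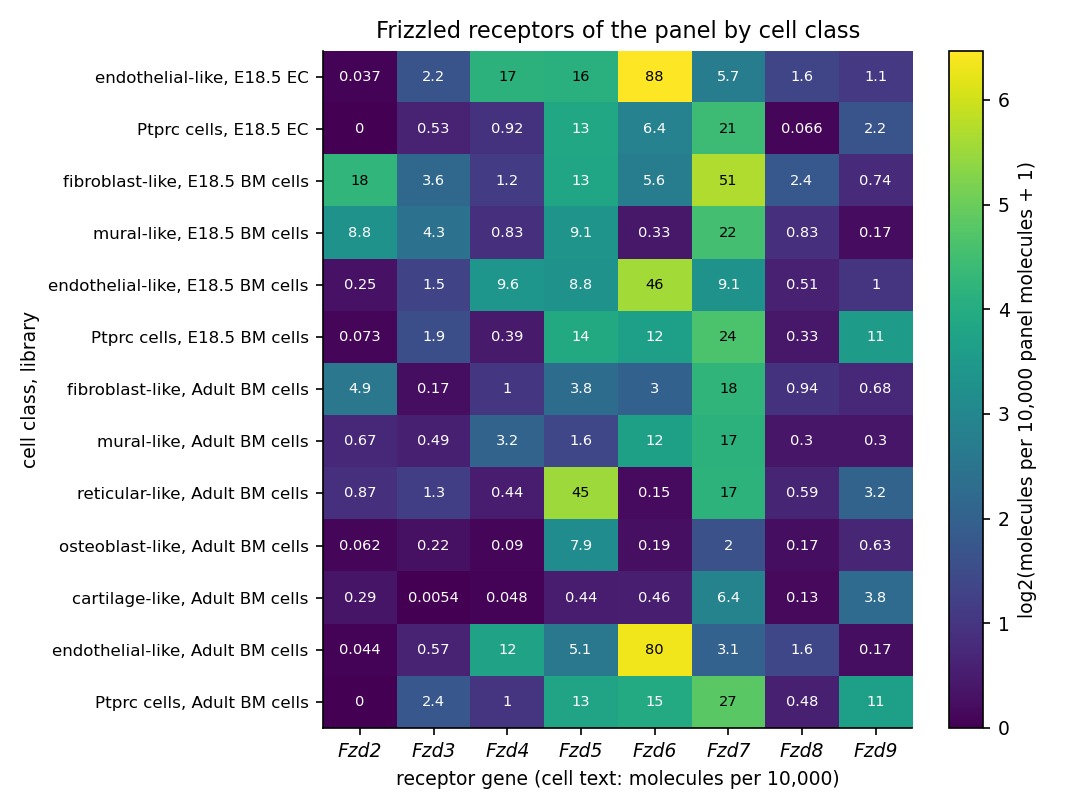
Levels of the 8 frizzled receptors (columns) in each cell class and library (rows), with colour for log2(molecules per 10000 panel molecules + 1) and the level written in each field. Amplicons differ in efficiency, so columns are read from top to bottom; Fzd2 is highest in fetal fibroblast-like cells, Fzd6 in endothelial-like cells, Fzd5 in adult reticular-like cells and Fzd9 in Ptprc cells of both BM libraries.

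Wnt ligands and other pathway members differed in both directions in the same comparison of fibroblast-like cells, in which 35.9% of all targets were at least 2 times higher and 28.2% lower. Of 17 ligands on the panel, 10 had enough molecules, 2 were at least 2 times higher at E18.5 and 3 were at least 2 times lower. The higher ones were Wnt5a, with levels of 10.5 and 1.62, and Wnt5b, with 6.46 and 2.14. Wnt1 (0.134 and 3.25), Wnt10b (1.04 and 4.70) and Wnt6 (0.268 and 1.11) were the lower ones. Of 6 co-receptor and R-spondin genes with enough molecules, Lgr5 was higher at E18.5 and Rspo1 (0.301 and 0.940) was lower. Lgr5, a receptor for R-spondins, had 154 molecules at E18.5 and 0 in the adult. Its level was 20.1-fold higher against 3 molecules over the class, and the exact 95% interval of the ratio starts at 16.1. Of the Dickkopf genes, which encode secreted factors, Dkk2 and Dkk3 had enough molecules, and both differed by less than 2 times.

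Inside the cell, and beside the same 35.9% and 28.2% over all targets, 2 of the 5 Dishevelled and destruction complex genes with enough molecules were at least 2 times higher at E18.5, and 0 were lower. They were Dvl2 (21.5 and 8.98), a Dishevelled protein that takes the signal from frizzled receptors, and Amer1 (7.96 and 1.71), which recruits Axin and APC. All 3 transcription factors and target genes were higher: Ccnd1 (69.2 and 16.2), the cyclin D1 gene, Lef1 (8.73 and 0.171), a partner of beta-catenin, and Myc (65.6 and 29.6). Among mural-like cells, where 41% of all targets were higher, the same 3 genes were also at least 2 times higher, with ratios of 3.62 for Ccnd1, 11.6 for Lef1 and 3.11 for Myc. They were so in endothelial-like cells too, beside 21.7% of 83 targets. In Ptprc cells Ccnd1 and Lef1 were at least 2 times higher, beside 21.3% of 94 targets. The higher levels at E18.5 were thus not particular to the mesenchymal classes.

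The contrast of fibroblast-like with Ptprc cells within E18.5 BM cells places Fzd2 beside secreted Wnt factors of the same cells. In it 45.5% of 101 targets were at least 2 times higher in fibroblast-like cells and 36.6% lower, and 4 of 8 receptors were higher (Fzd2, Fzd4, Fzd7 and Fzd8) and 2 lower (Fzd6 and Fzd9). Fzd2 had a ratio of 251 (131 to 551), next to Wnt5a with 314 molecules against 2 and Wnt2 with 575 against 9. The R-spondin gene Rspo2 had 706 molecules in fibroblast-like cells against 8 in Ptprc cells, and the secreted factor gene Dkk3 had 2547 against 157. Fzd3, at 1.85, stayed below the 2-fold line.

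In the adult library 41.8% of 98 targets were at least 2 times higher in fibroblast-like than in Ptprc cells and 42.9% lower. Of the 8 receptors Fzd2 was higher, and Fzd3, Fzd5, Fzd6 and Fzd9 were lower. Fzd3 had 2 molecules in the former and 45 in the latter, a ratio of 0.0715 (0.00840 to 0.274). For mural-like over Ptprc cells at E18.5, 4 of 8 receptors were at least 2 times higher (Fzd2, Fzd3, Fzd4 and Fzd8) and 2 lower, where 37.6% of 93 targets were higher and 49.5% lower. In the adult this comparison had 6 receptors with enough molecules, of which Fzd4 was higher and Fzd3, Fzd5 and Fzd9 were lower, beside 35.2% and 48.9% of 88 targets. Adult reticular-like over Ptprc cells had 2 of 8 receptors higher, Fzd2 and Fzd5, and 3 lower, beside 31.2% and 53.1% of 96 targets. Fzd5 stood at 45.0 in reticular-like and 12.7 in Ptprc cells. Ptprc cells of the fetal and adult libraries differed at least 2 times in 1 of 7 receptors, Fzd4, which was lower at E18.5, where 21.3% of 94 targets were higher and 34% lower.

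Across the 13 levels of named classes with at least 50 cells, the targets most like Fzd2 were Wnt5a (Pearson's r = 0.96 on the log2 scale), the secreted factor gene Dkk3 (r = 0.94) and the matrix gene Postn (r = 0.90), out of 105 targets. For Fzd3 the highest values were lower, with Amer1 (r = 0.69), the cyclin gene Ccne1 (r = 0.65) and Lgr5 (r = 0.63). Fzd2 and Fzd3 themselves gave r = 0.44 and ranked 24 for Fzd2 and 23 for Fzd3 among the targets. Ranks changed with Spearman's rho, by which Wnt5a stayed first for Fzd2 (0.81) and Amer1 first for Fzd3 (0.70). By it Dkk3 ranked 6 and Postn 13 for Fzd2, and Fzd2 with Fzd3 gave 0.08, at ranks 47 and 65. Postn entered the clustering and is a marker by which the fibroblast-like class was named, and Fzd2 was chosen for its levels across classes. The place of Postn near Fzd2 is therefore no separate support. Classes of 1 library share its depth and composition, so these values are a description.

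Within the fetal fibroblast-like class, Fzd2 and Fzd3 were found together in 36 cells, and the product of their shares within depth quartiles gave 36.4 cells. In fetal mural-like cells 8 cells had both (6.24 from the product), and in adult reticular-like cells 5 (4.51 from the product). These counts were close to those products. Cells with Fzd2 in the fetal fibroblast-like class had Wnt5a in 26.6% of cells (22.3 to 31.3), and cells without it in 16.3% (13.7 to 19.1), with median depths of 266 and 222.5 molecules. Fzd7 was found in 73.9% and 62.6% of them. By molecules neither gene differed 2 times between these cells, and of 91 targets 3 were at least 2 times higher (3.3%), namely Kdr, Mmp13 and Spp1, and 9 lower (9.89%), Bglap and Wnt4 among them. In fetal mural-like cells the shares with Dkk3 were 87.5% (73.2 to 95.8) with Fzd2 and 56.9% (47.7 to 65.8) without, at median depths of 320 and 303, and by molecules 7 of 61 targets were at least 2 times higher and 6 lower. The genes in these comparisons of cells were picked after their values were seen, and cells of 1 library are not replicates.

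Among the Ptprc cells of E18.5 BM cells, Fzd3 was highest in clusters with stem cell genes, a split that was made after the values were seen. The 3 Ptprc clusters of E18.5 BM cells with Hlf, a transcription factor of haematopoietic stem cells, among their 3 leading targets had 131 Fzd3 molecules in 3384 cells, a level of 4.12 (3.44 to 4.89). The other 5 Ptprc clusters had 107 in 7235 cells, a level of 1.17 (0.959 to 1.41). Median depth was 83 molecules in the former and 91 in the latter. The cluster led by the osteoclast genes Atp6v0d2 and Ctsk stood at 0.485 (0.258 to 0.830). Single Hlf clusters stood at 4.97 (3.96 to 6.16), 3.73 (2.57 to 5.24) and 2.39 (1.34 to 3.95), and the largest of the other clusters at 2.18 (1.61 to 2.88), so the split did not separate every cluster. Per panel molecule the pooled Hlf clusters lay near fibroblast-like cells, which were at 3.58, and per 100 cells they had 3.87 molecules against 9.48. In the same clusters, Fzd2 had 4 and 5 molecules. In E18.5 EC, Ptprc clusters with Hlf among their 3 leading targets had 7 Fzd3 molecules in 469 cells. Their level of 0.882 (0.355 to 1.82) was far below the 4.12 of E18.5 BM cells. Leading targets were ranked within each library, however, and Hlf itself was rarer in E18.5 EC. It was found in 4.48% of the 983 Ptprc cells of E18.5 EC and in 14.97% of the 10619 of E18.5 BM cells. Clusters picked by this split may therefore hold different cells in these libraries, and the part of this in the Fzd3 levels was not tested. The other Ptprc clusters of E18.5 EC had 1 molecule in 514 cells, a level of 0.137 (0.00347 to 0.763).

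The Ptprc cells of the BM libraries can also be split by Fzd3, which is another view of the same molecules and no separate support. Of 226 fetal Ptprc cells with Fzd3, 36.3% also had Hlf (30.01 to 42.9) and 15.9% had Mecom (11.4 to 21.4), another stem cell regulator. Of the 10393 Ptprc cells without Fzd3, 14.5% had Hlf (13.8 to 15.2) and 4.45% had Mecom (4.07 to 4.87), at median depths of 96 and 88 molecules. In Adult BM cells, the 45 Ptprc cells with Fzd3 had Hlf in 42.2% (27.7 to 57.8) and Mecom in 22.2% (11.2 to 37.1), and the 1685 cells without it in 21.1% (19.1 to 23.1) and 8.66% (7.36 to 10.1), at 84 and 91 molecules. By molecules, 16 of 86 targets were at least 2 times higher (18.6%) and 19 lower (22.1%) in fetal Ptprc cells with Fzd3, and 7 (9.86%) and 18 (25.4%) of 71 in adult ones; Hlf and Mecom were among the higher ones in both.

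The highest Fzd3 level of any cluster with at least 50 cells was in a group of 51 cells of E18.5 BM cells that met no rule for a name. It was led by the semaphorin gene Sema3g and the proteoglycan gene Vcan, and its cells had a median of 118 molecules. Here 27 Fzd3 molecules gave a level of 43.6 (28.8 to 63.5), and 17 cells (33.3%) had the gene, 11 of them with 1 molecule and 1 with 4. Fzd2 had 10 molecules at 16.2 (7.75 to 29.7), close to the level of fibroblast-like cells. Of the fibroblast markers, Postn was in every cell and Vcan in 78.4%, but Aspn was in 2 cells, at 4.85 per 10000 against 775 in fibroblast-like cells, and Ccn3 stood at 35.6 against 866. Ccnd1 was in 92.2% of the cells, at 924 per 10000 against 69.2 in fibroblast-like cells and 173 in all other cells of the library. Wnt6 had 30 molecules in 10 cells, or 48.5 per 10000 against 0.268 in fibroblast-like cells and 1.23 in all other cells. Markers of other classes were mixed: Cxcl12 and Igfbp7 were in 24 cells each, Kitl and Sema3g in 13 each, Tagln in 9, Ptprc in 7 and Rgs5 in 2, while Pecam1, Kdr, Lepr and Hlf had 0 molecules. These 51 cells were pointed out after their values were seen, and they held 6.25% of the Fzd3 molecules of their library in 0.397% of its cells.

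**Figure D4:**
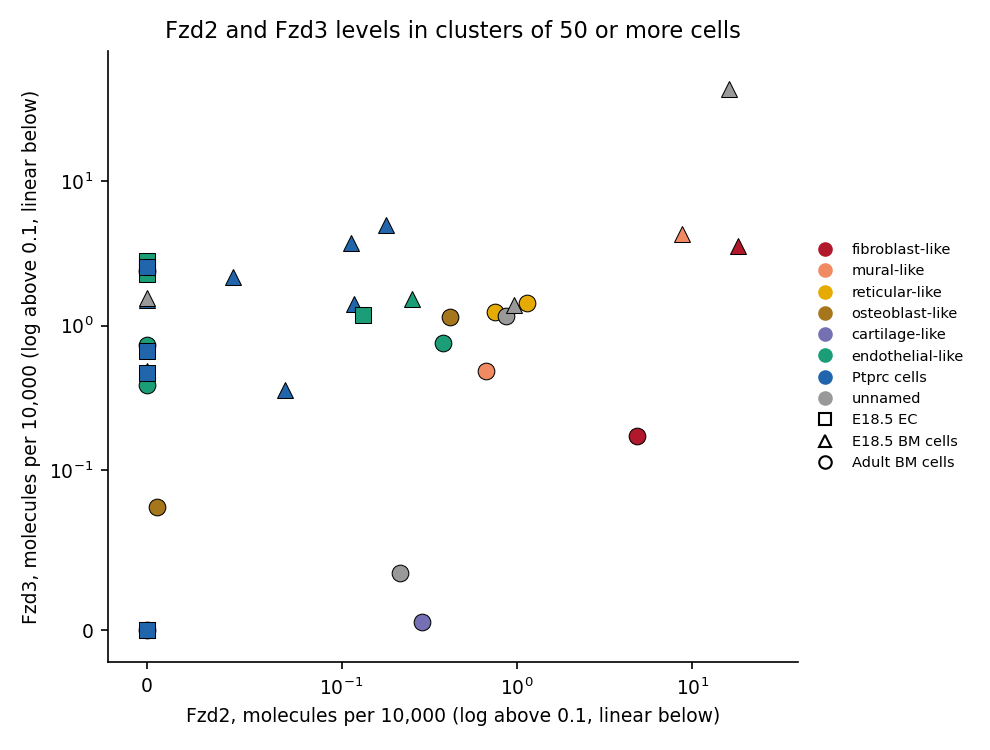
Each point is a cluster of at least 50 cells, placed by its Fzd2 level (x) and Fzd3 level (y) in molecules per 10000 panel molecules, on axes that are log above 0.1 and linear below; colour gives the class and shape the library. The unnamed cluster at the top right has Fzd3 at 43.6, fetal mural-like and fibroblast-like clusters lie below it, and the adult fibroblast-like cluster has Fzd2 at 4.87 with Fzd3 at 0.171.

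Other unnamed clusters held few molecules. The 169 cells of E18.5 BM cells led by Col10a1, Panx3 and Mmp13 had 16 molecules of Fzd2 (0.960 per 10000) and 23 of Fzd3 (1.38), with both receptors below the fibroblast-like levels. In Adult BM cells, 281 cells led by Prg4 had 12 molecules of Fzd2 and 2 of Fzd3. In E18.5 EC, the 24 cells led by Col22a1 and Postn held 4 of the 5 Fzd2 molecules of the library and 4 of Fzd3, while 3031 endothelial-like cells held 1 and 60. Fzd3 stood at 2.20 (1.68 to 2.83) in those endothelial-like cells and at 0.525 (0.227 to 1.03) in the 983 Ptprc cells, so the order of these classes was the reverse of that in Adult BM cells. Detected molecules of E18.5 EC were fewer after correction, as 21.2% of its raw molecules were kept against 41.6% in E18.5 BM cells.

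The correction of molecule counts treated the receptors differently in different cells. The deposited files hold molecules adjusted by recursive substitution error correction (RSEC) and, from these, by distribution-based error correction (DBEC). The latter removes molecules with few reads, and its values are used above. In fetal fibroblast-like cells 547 of 737 RSEC molecules of Fzd2 were kept (74.2%), at 22.4 reads per RSEC molecule. In fetal Ptprc cells 9 of 173 were kept (5.20%), at 2.17 reads per molecule. With RSEC molecules the Fzd2 ratio between these classes was 19.4 (16.4 to 23.0) in place of 251. Fzd3 of fetal Ptprc cells was kept at 45.1%, with 25.4 reads per RSEC molecule, close to the 33.8 reads in fibroblast-like cells, so the Fzd3 molecules of Ptprc cells were well covered by reads and their Fzd2 molecules were not. In adult cartilage-like cells 1 of 118 RSEC molecules of Fzd3 was kept, at 1.32 reads each, and 54 of 134 of Fzd2, at 8.94 reads each.

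**Figure D5:**
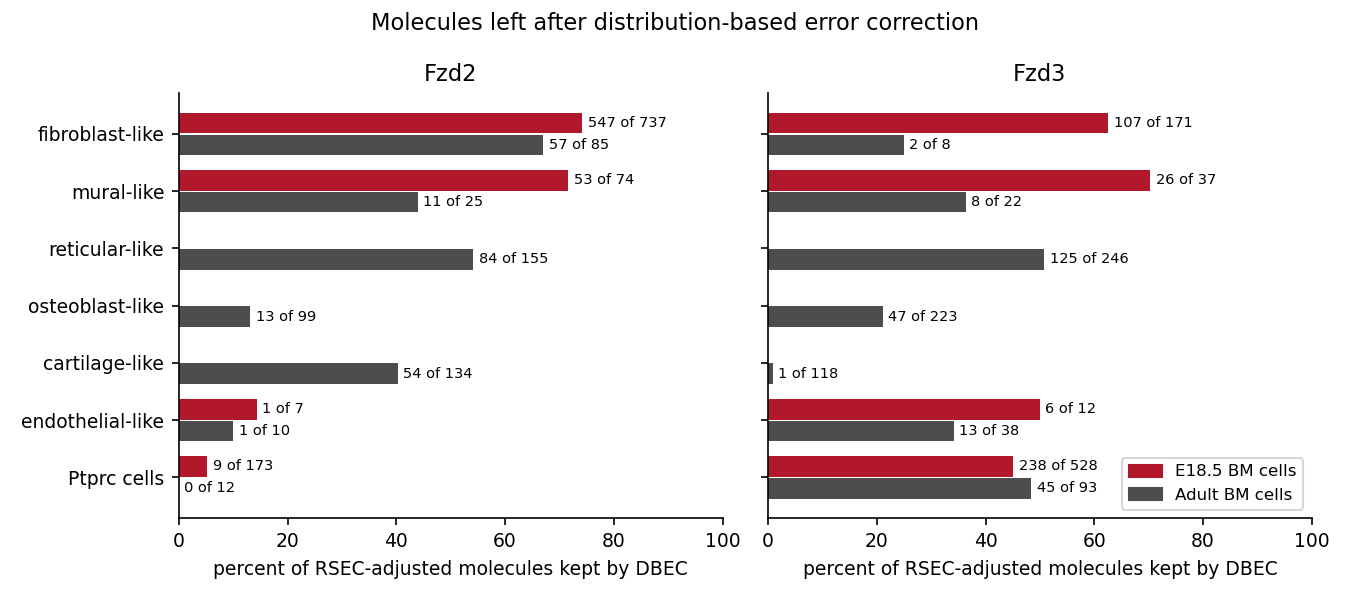
Bars give the percent of RSEC-adjusted molecules that remained after DBEC, by cell class, for Fzd2 (left) and Fzd3 (right) in both BM libraries, with the molecule counts beside them. For Fzd2 it was 74.2% in fetal fibroblast-like and 5.20% in fetal Ptprc cells, while for Fzd3 it was 62.6% and 45.1%.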

How the data were processed

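The deposited tables hold counts of reads and of molecules per cell barcode and amplicon, without normalization. Per the file headers, the authors made them with the BD Targeted Rhapsody Analysis Pipeline 1.8 (the study's methods name an earlier release), and the labels name mm10. DBEC-adjusted counts of molecules were summed per cell and target. Each library was clustered on its own with scikit-learn 1.9.0 and igraph 0.11.9 (11 principal components, 20 neighbours, Leiden resolution 0.5, random seed 1), leaving out Wnt pathway and cell cycle targets. A cluster with Ptprc in at least 50% of cells was put with the Ptprc cells. A name needed at least 3 of its markers above the remaining cells, and a lead over each other class in markers within the 10 leading targets, either by 2 or with its own marker first; this last condition was set after the clusters were seen. The files carry no cell type annotation, and no doublet caller was run; cells with Ptprc or Pecam1 were left out of mesenchymal classes as an alternative. Poisson, exact conditional and Clopper-Pearson intervals (95%) came from scipy 1.17.1. Intervals treat molecules as independent. Ratio and interval code was tested on simulated data. The receptors, gene lists and comparisons were chosen with earlier results of these data known. Named were both receptors, the other frizzled receptors, the 3 targets most alike to each, and list members that differed at least 2 times with at least 20 molecules.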

Additional observations from a re-analysis of the deposited data

Results flagged for a closer look

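Fzd3 stands here because the fibroblast-like and mural-like classes lay above Ptprc cells in the E18.5 BM library and below them in the adult one. Fibroblast-like cells stood at 1.85 times the Ptprc level at E18.5 (1.46 to 2.34) and at 0.0715 times in the adult (0.00840 to 0.274). Mural-like cells stood at 2.24 times (1.43 to 3.36) and at 0.204 times (0.0830 to 0.437). Each stage had 1 library, and the difference between the stages was not tested. Per cell, the fibroblast-like ratios were 4.23 and 0.246, and the mural-like ones 7.12 and 0.992. Adult reticular-like and osteoblast-like cells had 5.43 and 5.84 molecules per 100 cells, above the 2.60 of Ptprc cells. Without the 10 most abundant targets of each library the fibroblast-like ratio at E18.5 was 0.855, below 1.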

How the results depend on the processing

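Of 120 values of the 10 main ratios under 12 alternatives, 100 stayed within the counting interval of the reported ratio. For Fzd2 in fibroblast-like over Ptprc cells at E18.5, the ratio was 19.4 with RSEC molecules, 25.9 with raw molecules, 38.2 at resolution 1, 116 without the 10 most abundant targets and 572 per cell. Without those 10 targets, Fzd2 in fibroblast-like over mural-like cells at E18.5 was 3.75, in adult fibroblast-like over reticular-like cells 1.42, and in fibroblast-like cells at E18.5 over adult 6.02. Fzd3 in Ptprc cells at E18.5 over adult was then 1.70, and 1.19 with RSEC molecules. The Fzd3 ratio of fibroblast-like over Ptprc cells at E18.5 turned to 0.855, and that of adult reticular-like over Ptprc cells to 1.29. Per cell, Fzd2 in fibroblast-like over mural-like cells was 1.49 and in fibroblast-like cells at E18.5 over adult 2.66; Fzd3 in fibroblast-like over Ptprc cells was 4.23 and in adult reticular-like over Ptprc cells turned to 2.09. With cells gated on marker genes, Fzd2 in adult fibroblast-like over reticular-like cells was 3.09, in fibroblast-like cells at E18.5 over adult 6.74 and in mural-like cells 43.2, and Fzd3 in fibroblast-like over Ptprc cells was 2.43. The causes were not tested beyond the construction of each setting. Of the levels, shares and counts of other results, 322 stayed and 56 moved. No paired analysis was possible because each group had 1 library.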
